A study of Homo sapiens with 6 samples.

Results

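SR proteins and heterogeneous nuclear ribonucleoproteins (hnRNPs) are the RNA-binding proteins that most pre-mRNAs meet first in the nucleus, and their genes were examined here in HCT116 cells overexpressing another RNA-binding protein, RBM47. The members were the protein-coding genes of the deposited count table with an SRSF, TRA2, SRRM, SON, HNRNP or PCBP symbol and a mean of at least 10 counts over the 6 libraries. A gene with such a symbol was left out beforehand and is not reported here. Of 28491 genes in the table, 45 matched by symbol and 42 passed the count limit, 18 of them SR protein genes and 24 hnRNP genes. SRRM4, SRSF12 and HNRNPCL1 fell under the limit, with at most 3 counts in any library. HCT116 is a human colorectal carcinoma line, and poly(A) RNA was sequenced 48 h after transfection with a control plasmid (NC, 3 libraries) or with a plasmid carrying the RBM47 transcript NM_019027 (RBM47-OE, 3 libraries). The paper and the sample labels differ on the plasmid backbone (pIRES-hrGFP-1a or pcDNA3.1-3xFlag), on the medium (McCoy's 5A or DMEM) and on the stranded library kit (KC or NEBNext). Neither says whether the 3 libraries of a group came from separate cultures, so p-values measure only the spread between these libraries, which may be technical. Each value is an average over a whole culture, so a change in some of the cells cannot be told apart from a smaller change in all of them.

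SR proteins join an RNA recognition domain to a tail rich in arginine and serine, bind exonic enhancers and recruit the spliceosome to nearby splice sites. The hnRNPs coat nascent transcripts through RNA recognition or KH domains and often oppose exon inclusion, so the balance between both families sets many alternative exons. Both families are known to control their own mRNA levels through alternatively spliced exons that direct the transcript to nonsense-mediated decay. RBM47 carries RNA recognition domains of the hnRNP kind and is known for a role in alternative splicing and mRNA stability in epithelial cells.

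The libraries held between 26792409 and 35477983 counts on genes, and the 42 members took between 1.20% and 1.30% of these counts in every library. RBM47 was at 1.91, 2.33 and 1.94 FPKM in the NC libraries and at 131.3, 130.4 and 127.0 in the RBM47-OE libraries, where plasmid reads are included (log2 fold change 5.90, standard error, SE, 0.096, edgeR's quasi-likelihood test, adjusted p = 1.69e-25). FPKM scales the fragments of a gene to its length and to the library's mapped fragments. The epithelial markers EPCAM, CDH1, KRT8, KRT18 and KRT19 had mean FPKM values between 13.1 and 972 in NC. Of these 5, EPCAM rose (0.26) and KRT8 (-0.27) and KRT18 (-0.36) fell on the log2 scale at an adjusted p under 0.05. KRT8 (-0.10) and KRT18 (-0.19) no longer passed once each library's trend with GC content was taken out (edgeR adjusted p = 0.365 and 0.063), and EPCAM did (0.27, adjusted p = 0.00547). The endothelial PECAM1 had at most 8 counts and the fibroblast COL3A1 at most 6 in any library, whereas COL1A1 was at a mean of 1.53 FPKM in both groups. The part of these marker changes in the members' values was not tested. RBM47-OE replicate 1 stood apart from replicates 2 and 3, with a chi-square per degree of freedom over genes of 17.9 and 19.5 against them, where the other pairs within a group gave 3.38 to 8.95. The RBM47-OE libraries also carried a trend with exonic GC content. Across 16229 genes, Spearman's rho of the log2 difference from NC with exonic GC content was -0.41, -0.59 and -0.67 in RBM47-OE replicates 1, 2 and 3, and -0.16, 0.13 and 0.04 for each NC library against the others. Values from a second fit that takes out each library's trend with GC content (the GC offset), and from a fit without RBM47-OE replicate 1, are therefore given beside the counts of members.

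Among the SR protein and hnRNP genes, 5 had higher and 12 lower levels in RBM47-OE, and 25 did not pass the test (edgeR's quasi-likelihood test, Benjamini-Hochberg adjusted p under 0.05 over all 16260 genes tested). The members higher were HNRNPH2, SRSF10, SRSF1, HNRNPA3 and SRSF11. The members lower were SRRM5, SRSF2, HNRNPL, PCBP4, HNRNPAB, HNRNPA0, SRRM3, PCBP1, HNRNPUL1, SRRM2, PCBP2 and HNRNPD. Over all genes tested, 19.1% were called higher and 16.9% lower, and among the members 11.9% were called higher and 28.6% lower. In either direction the share was 40.5% of the members and 35.9% of all genes. All 42 members passed the low-count filter. The changes were small, with log2 fold changes from -0.65 to 0.41, and SRRM5 alone changed by more than 1.5-fold. With the study's own limits (p under 0.01 without adjustment and more than 1.5-fold), edgeR called 0 of 42 members, whereas 2.38% of all genes passed. DESeq2 and limma also called 0 members there, although 21 members had an unadjusted p under 0.05 by edgeR. The median log2 fold change was -0.023 over the members and 0.000040 over all genes tested. Ranges of the normalized counts did not overlap between groups for 9 members that were higher and 13 that were lower, 21.4% and 31.0% of the members, beside 23.2% and 23.4% of all genes. The split between directions moved with the scaling, to 9 higher and 7 lower with library totals, where 22.7% and 11.6% of all genes were called, and to 7 higher and 6 lower by limma on FPKM values, where 16.3% and 9.02% were with a pseudocount of 1 and 16.6% and 9.09% with 0.1.

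With the GC offset, 1 member was higher and 15 were lower, 2.38% and 35.7% of the members, where 6.0% and 8.47% of all genes were called. The median log2 fold change of the members was then -0.16, and that of all genes -0.00056. HNRNPH2 was the member higher, and SRSF2, HNRNPL, HNRNPA0, HNRNPD and PCBP2 were called lower by both fits. The other members lower with the offset were SRSF3, SRSF4, SRSF6, SRSF7, SRSF9, SRRM1, HNRNPA1, HNRNPC, HNRNPH3 and HNRNPU. Without RBM47-OE replicate 1, 9 members were higher (21.4%) and 12 lower (28.6%), beside 23.5% and 21.3% of all genes. SRSF5, TRA2B, HNRNPA2B1 and HNRNPDL were then called higher and SRSF9 lower (edgeR adjusted p of 0.00397 to 0.0164), and SRRM5 was no longer called (adjusted p = 0.0847).

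With each library left out in turn, SRSF2, SRSF10, HNRNPA0, HNRNPAB, HNRNPH2, HNRNPL and PCBP4 kept an edgeR adjusted p under 0.05 each time. Leaving out NC replicate 1 took HNRNPA3, HNRNPD, PCBP2, SRRM2, SRRM3, SRRM5 and SRSF11 past that limit (edgeR adjusted p of 0.0508 to 0.204). Leaving out NC replicate 2 took these 7 and HNRNPUL1 and PCBP1 past it (0.0508 to 0.148), and leaving out NC replicate 3 took the 7 without SRRM5 and with HNRNPUL1 (0.0602 to 0.169). Without RBM47-OE replicate 2 the calls of HNRNPD, PCBP2, SRRM3 and SRSF11 were lost (0.0527 to 0.120), and without RBM47-OE replicate 3 those of HNRNPA3, PCBP2, SRRM2, SRRM3, SRRM5, SRSF1 and SRSF11 (0.0524 to 0.233). HNRNPH2, SRSF2, HNRNPL and HNRNPA0 kept their direction and an adjusted p under 0.05 under all 19 alternatives run on single members. Of the 17 called members, 14 kept their direction under all of these, and SRSF1, SRSF11 and HNRNPA3 were below 0 with the GC offset. The plot of log2 fold changes by subfamily shows both fits side by side.

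**Figure D1:**
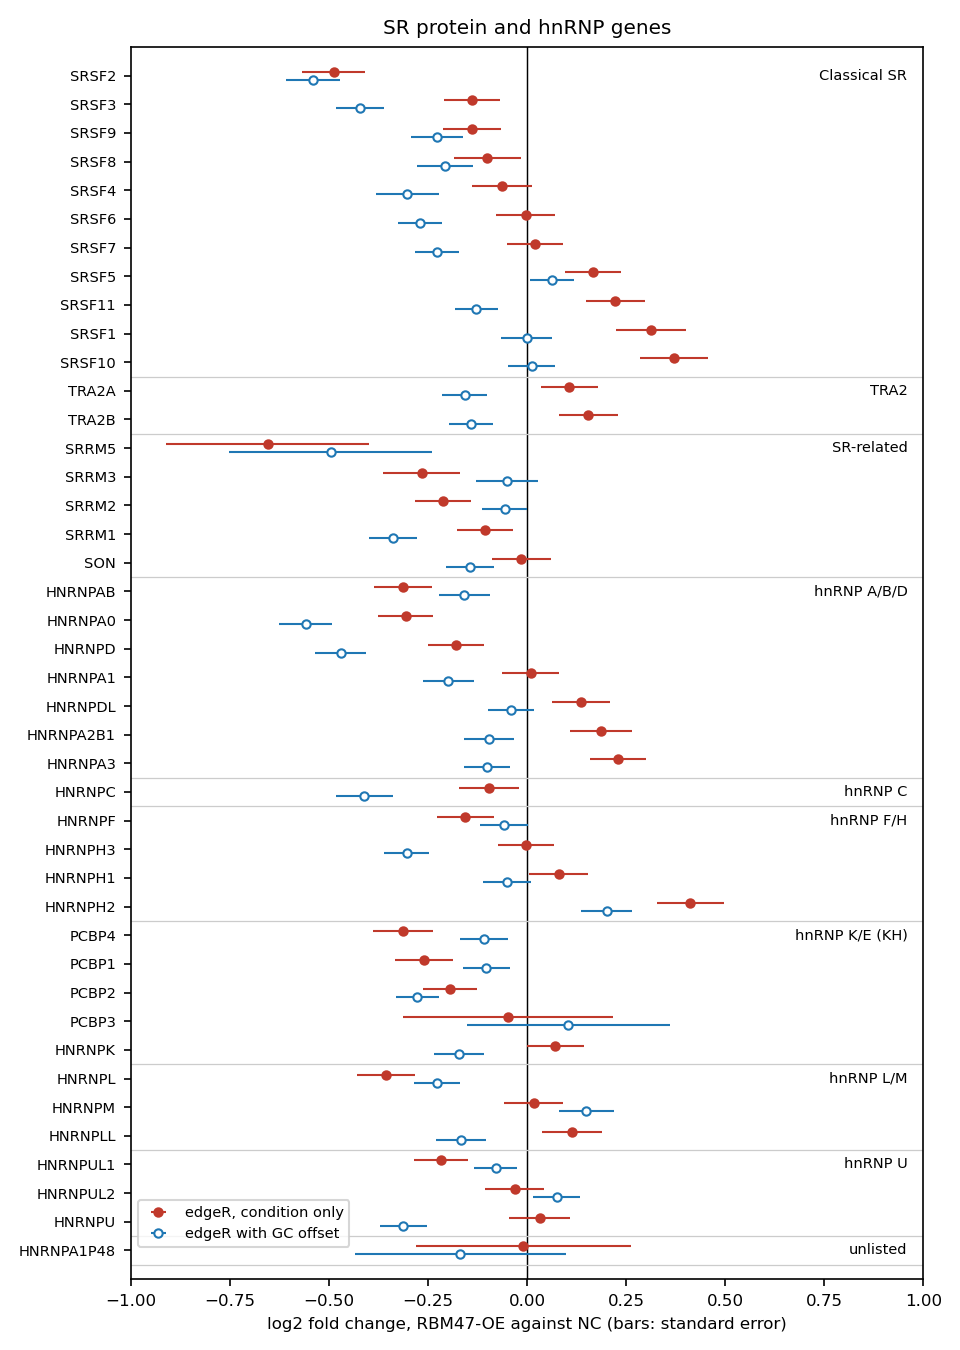
Log2 fold change of each of the 42 members (x axis, RBM47-OE against NC, bars are standard errors), grouped by protein subfamily, from edgeR with condition only (filled) and with the GC offset (open). HNRNPH2 lies above 0 in both fits, SRSF2, HNRNPA0 and HNRNPL lie below 0 in both, and most open points sit to the left of the filled ones, with medians of -0.16 and -0.023.

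The promoters of the 2 members with the largest rises before the GC offset and of 2 members that fell in every setting are shown. With the GC offset the rise of SRSF10 was 0.012 on the log2 scale. SRSF2 also fell in every setting but had no promoter in the RefSeq table. Each runs from 250 bases before to 50 bases after the start in RefSeq (GRCh38.p14), read 5′ to 3′ along the gene. HNRNPH2 lies at chrX:101407972-101408271 on the plus strand, SRSF10 at chr1:23980278-23980577, HNRNPL at chr19:38852298-38852597 and HNRNPA0 at chr5:137754314-137754613, the last 3 on the minus strand. Capitals mark matches on either strand to 5 motifs, which were CCGGAAG for the ETS core, CCAAT for the box of that name, TATAAA for the TATA box, GGGCGG for the GC box and GCATGCG for NRF1, with overlapping matches joined.
HNRNPH2: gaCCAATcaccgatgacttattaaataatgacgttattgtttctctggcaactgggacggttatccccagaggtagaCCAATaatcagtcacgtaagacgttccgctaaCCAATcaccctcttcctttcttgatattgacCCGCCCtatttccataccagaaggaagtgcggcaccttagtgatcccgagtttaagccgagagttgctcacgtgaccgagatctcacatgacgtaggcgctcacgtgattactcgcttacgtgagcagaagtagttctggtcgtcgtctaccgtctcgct
SRSF10: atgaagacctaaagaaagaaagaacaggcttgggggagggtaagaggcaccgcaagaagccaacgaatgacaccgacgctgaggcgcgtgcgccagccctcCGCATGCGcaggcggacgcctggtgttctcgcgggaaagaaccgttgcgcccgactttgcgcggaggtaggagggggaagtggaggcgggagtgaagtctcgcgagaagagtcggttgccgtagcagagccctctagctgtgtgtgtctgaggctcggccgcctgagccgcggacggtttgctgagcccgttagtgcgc
HNRNPL: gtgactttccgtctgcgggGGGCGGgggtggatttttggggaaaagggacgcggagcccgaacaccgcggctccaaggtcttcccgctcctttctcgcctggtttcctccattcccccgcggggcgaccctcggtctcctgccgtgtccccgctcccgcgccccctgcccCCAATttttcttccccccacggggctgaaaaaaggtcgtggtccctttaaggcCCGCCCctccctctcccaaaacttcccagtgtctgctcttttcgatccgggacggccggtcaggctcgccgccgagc
HNRNPA0: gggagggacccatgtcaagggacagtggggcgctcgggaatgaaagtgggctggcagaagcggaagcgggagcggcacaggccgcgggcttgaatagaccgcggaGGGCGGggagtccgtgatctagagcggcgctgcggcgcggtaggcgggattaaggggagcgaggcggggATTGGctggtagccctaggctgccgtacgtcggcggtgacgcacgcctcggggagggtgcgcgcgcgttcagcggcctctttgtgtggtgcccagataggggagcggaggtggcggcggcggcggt
The HNRNPH2 promoter held 3 CCAAT boxes and 1 GC box at a GC content of 48.7%. The SRSF10 promoter, at 63.0%, held 2 overlapping matches to the NRF1 motif, on opposite strands of the same stretch. The HNRNPL promoter held 1 CCAAT box and 2 GC boxes at 66.3%, and the HNRNPA0 promoter held 1 of each at 70.3%. Of the 42 members, 37 had a promoter in the RefSeq table. A GC box was found in 67.6% of these and in 44.6% of all 27305 promoters of the same length, a CCAAT box in 43.2% and 35.7%, and an ETS core in 18.9% and 10.7%. The TATA box was found in 13.5% and 12.0%, and the NRF1 motif in 2.70% and 4.13%. The members' promoters had a median GC content of 65.0% and 30 CG dinucleotides, beside 58.3% and 14 in all promoters. These matches are descriptions of the letters and not of bound sites, and the groups of promoters were not compared by a test. The promoters of the members called higher had a median GC content of 62.0% (5 genes), and those called lower 66.3% (11 genes).

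Among the 11 classical SR protein genes, 3 rose and 1 fell. Over all genes tested 19.1% were called higher and 16.9% lower, and these shares stand beside the counts of every subfamily. With the GC offset 0 of these 11 genes rose and 6 fell, beside 6.0% and 8.47% of all genes. SRSF2, which binds exonic enhancers and is also known for a role in transcription elongation, had the smallest adjusted p. Its FPKM was 58.3, 55.4 and 51.8 in NC and 40.01, 37.9 and 46.1 in RBM47-OE. All 3 RBM47-OE libraries lay below all NC libraries, and the level fell to 0.713 of NC (log2 fold change -0.49, SE 0.079, edgeR's quasi-likelihood test, adjusted p = 8.8e-05). With the GC offset the log2 fold change was -0.54 (adjusted p = 4.33e-05). SRSF2 lies on the minus strand at chr17:76734115-76737333 of GRCh38 (GENCODE 44), and 27.7% of its exonic bases are shared with MFSD11 on the opposite strand, whose log2 fold change was -0.19 (edgeR adjusted p = 0.094).

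SRSF10, known as a splicing repressor when it is dephosphorylated in heat shock and mitosis, had 5.92, 5.86 and 6.29 FPKM in the NC libraries and 6.64, 9.07 and 8.90 in RBM47-OE. The groups did not overlap, and replicate 1 lay closest to NC (log2 fold change 0.37, SE 0.086, edgeR adjusted p = 0.00162). The value was 0.012 with the GC offset (adjusted p = 0.924) and 0.50 without RBM47-OE replicate 1. SRSF1, the founding SR protein and a known oncoprotein, was at 7.39, 7.24 and 7.77 FPKM in the NC libraries and at 8.06, 10.1 and 11.2 in RBM47-OE. Its groups were separate, with a log2 fold change of 0.31 (SE 0.089, edgeR adjusted p = 0.00724) that was -0.00095 with the GC offset (adjusted p = 0.995). SRSF11, also called SRp54, had 12.1, 11.3 and 12.2 FPKM in the NC libraries and 12.8, 15.3 and 15.6 in RBM47-OE. The log2 fold change was 0.22 (edgeR adjusted p = 0.0215), and -0.13 with the GC offset (adjusted p = 0.117). In these 3 genes the RBM47-OE and NC ranges were apart, and replicate 1 was the lowest of them.

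SRSF6, at the other end of the list, had 44.03, 44.02 and 42.3 FPKM in the NC libraries and 40, 47.3 and 49.6 in RBM47-OE. Its groups overlapped, and the log2 fold change was -0.0034 (edgeR adjusted p = 0.978), and -0.27 with the GC offset (adjusted p = 0.00251). The remaining classical SR genes had log2 fold changes of -0.14 for SRSF3, which shapes exon choice and mRNA export, -0.14 for SRSF9, -0.10 for SRSF8, -0.063 for SRSF4, 0.019 for SRSF7 and 0.17 for SRSF5, none past the test. With the GC offset SRSF3 (-0.42), SRSF4 (-0.30), SRSF7 (-0.23) and SRSF9 (-0.23) were called lower (edgeR adjusted p of 0.000115 to 0.0231). SRSF8 (-0.21) and SRSF5 (0.063) were not called with it (edgeR adjusted p = 0.0529 and 0.509). TRA2A and TRA2B, the SR-like activators of GAA-rich exons, did not pass the test in either fit. TRA2B had 9.13, 8.79 and 8.56 FPKM in the NC libraries and 9.23, 11.5 and 10.3 in RBM47-OE (log2 fold change 0.15, edgeR adjusted p = 0.105). TRA2A had 20.8, 19.98 and 20.6 FPKM in the NC libraries and 21.6, 22.9 and 24.9 in RBM47-OE (log2 fold change 0.11, edgeR adjusted p = 0.266). Both were higher in every RBM47-OE library on the FPKM scale, and both were below 0 with the GC offset, at -0.14 for TRA2B and -0.16 for TRA2A.

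Of the 5 SR-related coactivator genes, 3 fell and 0 rose. SRRM2, a large scaffold of nuclear speckles, had 35.6, 37.7 and 38.4 FPKM in the NC libraries and 34.5, 34.3 and 32.5 in RBM47-OE. Every RBM47-OE library lay below every NC library (log2 fold change -0.21, SE 0.071, edgeR adjusted p = 0.0208), and the value with the GC offset was -0.056 (adjusted p = 0.566). SRRM3, known for microexon splicing in neurons, was low, at 2.67, 2.83 and 2.64 FPKM in the NC libraries and 2.53, 2.41 and 2.17 in RBM47-OE (log2 fold change -0.27, edgeR adjusted p = 0.0335, and -0.051 with the GC offset, adjusted p = 0.727). SRRM5 was at 0.93, 0.73 and 0.66 FPKM in the NC libraries and at 0.49, 0.73 and 0.32 in RBM47-OE. Its groups overlapped at 0.73 FPKM, and its log2 fold change of -0.65 (SE 0.26, edgeR adjusted p = 0.0476) rests on a mean of 60.0 counts. DESeq2 gave SRRM5 an adjusted p of 0.0595, and the GC offset a log2 fold change of -0.50 (edgeR adjusted p = 0.213). Its log2 fold change was -0.42 without RBM47-OE replicate 3 (edgeR adjusted p = 0.233) and -0.96 without RBM47-OE replicate 2 (adjusted p = 0.0169). SON, another speckle protein, had 18.6, 18.3 and 18.4 FPKM in the NC libraries and 17.7, 18.6 and 21.3 in RBM47-OE, with overlapping groups (log2 fold change -0.014, edgeR adjusted p = 0.906). SRRM1, the splicing coactivator SRm160, had a log2 fold change of -0.11, which was -0.34 with the GC offset.

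**Figure D2:**
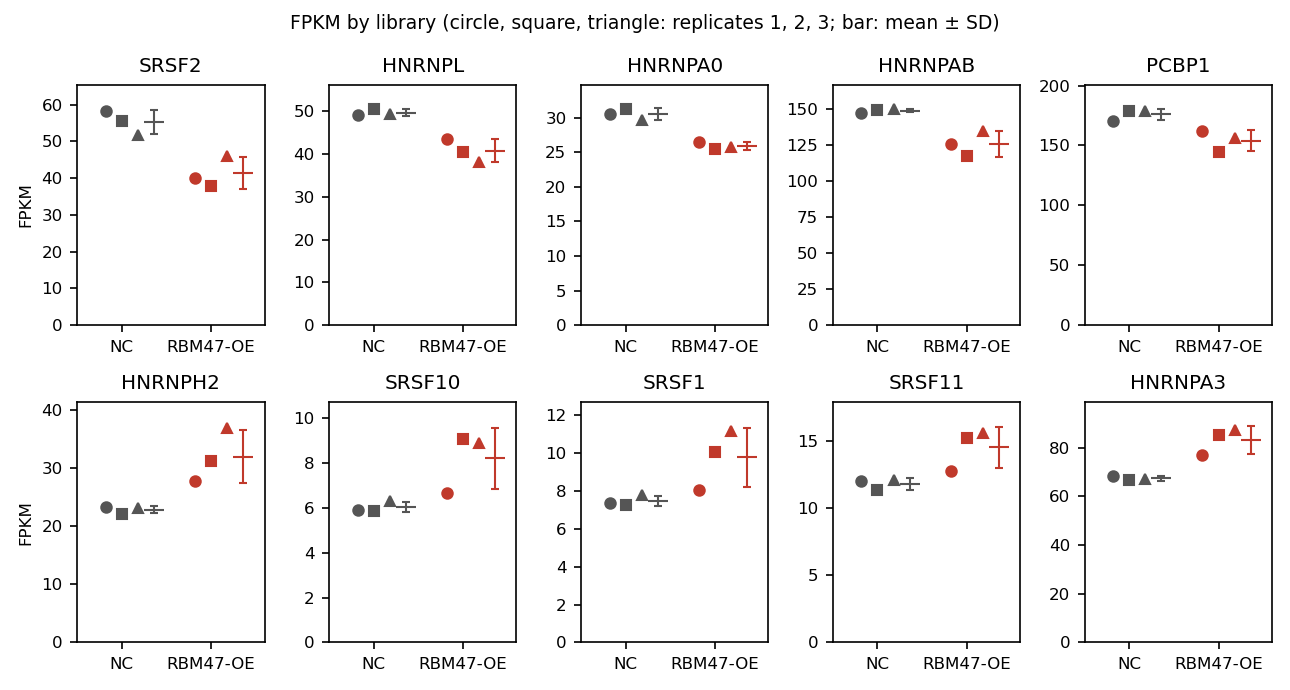
FPKM (y axis, from 0) in each library of NC and RBM47-OE for 5 members that fell (top) and the 5 that rose (bottom), with the symbols marking replicates 1, 2 and 3 and the bars mean ± SD (n = 3). The upper panels show 5 of the 12 members called lower, without SRRM5, which had the largest fall and overlapping groups. The groups are separate in all 10 panels shown, and RBM47-OE replicate 1 is the lowest of its group in the 5 lower panels. SRSF1, SRSF11 and HNRNPA3 had log2 fold changes below 0 with the GC offset. SRSF10 (0.012), HNRNPAB (-0.16) and PCBP1 (-0.10) did not pass the test with that offset.

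Among the 7 genes of the hnRNP A, B and D proteins, 1 rose and 3 fell. HNRNPA0, which binds AU-rich elements of stress-related mRNAs, had 30.5, 31.3 and 29.6 FPKM in the NC libraries and 26.5, 25.5 and 25.7 in RBM47-OE. The groups were well separated, and the level fell to 0.809 of NC (log2 fold change -0.31, SE 0.069, edgeR adjusted p = 0.00143). With the GC offset the fall was larger, at -0.56 (adjusted p = 3e-05), the lowest value of any member in that fit. HNRNPA0 lies on the minus strand at chr5:137745651-137754363. By the exons of GENCODE 44 it shares no exonic bases with another gene of the count table. HNRNPAB, a binder of single-stranded nucleic acids, had 147.5, 149.5 and 149.8 FPKM in the NC libraries and 125.7, 117.1 and 135.0 in RBM47-OE. Its groups were separate (log2 fold change -0.31, SE 0.073, edgeR adjusted p = 0.00186), and the GC offset gave -0.16 (adjusted p = 0.102). HNRNPD, also called AUF1 and known for AU-rich element decay, had a log2 fold change of -0.18 (edgeR adjusted p = 0.0476), which was -0.47 with the GC offset (adjusted p = 7.69e-05).

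HNRNPA3 had 68.6, 66.7 and 67.2 FPKM in the NC libraries and 76.9, 85.3 and 87.5 in RBM47-OE, with every RBM47-OE library higher. Its log2 fold change was 0.23 (SE 0.071, edgeR adjusted p = 0.0136), and -0.10 with the GC offset (adjusted p = 0.263). HNRNPA1, the classic antagonist of SRSF1 at alternative splice sites, had 168.4, 170.9 and 166.1 FPKM in the NC libraries and 175.4, 173.5 and 185.3 in RBM47-OE. These FPKM values did not overlap, but the normalized counts did, and the log2 fold change was 0.0090 (edgeR adjusted p = 0.940) and -0.20 with the GC offset. FPKM ratios sat above the TMM-normalized fold changes by a median of 0.071 on the log2 scale over 11547 genes, so small rises on the FPKM scale carry that shift. HNRNPA2B1, a relative of HNRNPA1, had a log2 fold change of 0.19 (edgeR adjusted p = 0.0647), and HNRNPDL 0.14, and both were below 0 with the GC offset (-0.096 and -0.040). HNRNPC, which binds uridine tracts and keeps Alu-derived exons out of mRNA, had 148.2, 143.0 and 131.0 FPKM in the NC libraries and 137.0, 136.4 and 141.7 in RBM47-OE. Its groups overlapped (log2 fold change -0.096, edgeR adjusted p = 0.340), and the GC offset gave -0.41 (adjusted p = 0.00069).

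The hnRNP F and H proteins bind runs of guanines near splice sites, and of their 4 genes 1 rose and 0 fell. HNRNPH2 had 23.3, 22.1 and 23.1 FPKM in the NC libraries and 27.7, 31.2 and 36.8 in RBM47-OE. The lowest RBM47-OE library lay above the highest NC library, and the level rose 1.33-fold (log2 fold change 0.41, SE 0.084, edgeR adjusted p = 0.000601). The GC offset left a log2 fold change of 0.20 (edgeR adjusted p = 0.0412). HNRNPH2 lies on the plus strand at chrX:101408222-101414133, and 15.8% of its exonic bases are shared on the same strand with the readthrough gene RPL36A-HNRNPH2. That row had 394, 529 and 445 counts in NC and 684, 654 and 676 in RBM47-OE (log2 fold change 0.49, edgeR adjusted p = 0.000478). Reads in the shared exon cannot be told apart between both genes, and both rose. HNRNPH3 had 21.7, 22.4 and 21.8 FPKM in the NC libraries and 21.5, 22.9 and 24.6 in RBM47-OE, with overlapping groups (log2 fold change -0.0032, edgeR adjusted p = 0.978), and -0.30 with the GC offset (adjusted p = 0.00123). HNRNPH1 had a log2 fold change of 0.080 and HNRNPF of -0.16 (edgeR adjusted p = 0.431 and 0.0918), and HNRNPH1 was at -0.051 with the GC offset.

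The KH-domain proteins are HNRNPK and the poly(C)-binding PCBP1 to PCBP4, which act in splicing, mRNA stability and translation, and of their 5 genes 3 fell and 0 rose. PCBP4 had 14.1, 15.3 and 14.8 FPKM in the NC libraries and 13, 11.8 and 12.46 in RBM47-OE. The groups were separate (log2 fold change -0.31, SE 0.076, edgeR adjusted p = 0.0025), and the GC offset gave -0.11 (adjusted p = 0.250). PCBP1, an iron chaperone as well as an RNA-binding protein, had 170.4, 178.5 and 179.0 FPKM in the NC libraries and 162.1, 144.3 and 156.1 in RBM47-OE (log2 fold change -0.26, edgeR adjusted p = 0.00687), and the GC offset gave -0.10 (adjusted p = 0.267). On the opposite strand PCBP1-AS1 overlaps 73.2% of the exonic bases of PCBP1, and its log2 fold change was -0.18 (edgeR adjusted p = 0.0922). PCBP2 fell in both fits, by 0.19 on the log2 scale and by 0.28 with the GC offset (edgeR adjusted p = 0.0262 and 0.00174). PCBP3 was nearly silent, at 0.19, 0.17 and 0.19 FPKM in the NC libraries and 0.23, 0.17 and 0.15 in RBM47-OE (log2 fold change -0.049, edgeR adjusted p = 0.911). HNRNPK had a log2 fold change of 0.071, and -0.17 with the GC offset, with neither past the test.

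Of the 3 genes of the hnRNP L and M proteins, 1 fell and 0 rose. HNRNPL, a binder of CA repeats that acts in exon skipping and polyadenylation, had 49.2, 50.5 and 49.5 FPKM in the NC libraries and 43.6, 40.5 and 38.2 in RBM47-OE. Its groups did not overlap, and the level fell to 0.781 of NC (log2 fold change -0.36, SE 0.073, edgeR adjusted p = 0.000604). The GC offset left a log2 fold change of -0.23 (adjusted p = 0.0101), and leaving out RBM47-OE replicate 1 gave -0.42. HNRNPL lies on the minus strand at chr19:38836370-38852347, and 8.64% of its exonic bases are shared on the same strand with AC104534.3. The counts of AC104534.3 were 5498, 7176 and 5978 in NC and 5853, 4659 and 4542 in RBM47-OE, and it fell as well (log2 fold change -0.38, edgeR adjusted p = 0.00043). HNRNPM, known for alternative exons of the epithelial to mesenchymal change, had 71.6, 69.9 and 70.3 FPKM in the NC libraries and 68.6, 73.7 and 83.0 in RBM47-OE. Its groups overlapped (log2 fold change 0.017, edgeR adjusted p = 0.890). HNRNPLL, the close relative of HNRNPL known from CD45 splicing in lymphocytes, had a log2 fold change of 0.11 (edgeR adjusted p = 0.260), and -0.17 with the GC offset.

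Of the 3 genes of the hnRNP U proteins, which tie RNA to the nuclear matrix and chromatin, 1 fell and 0 rose. HNRNPUL1 had 34.9, 36.7 and 37.3 FPKM in the NC libraries and 32.9, 32.9 and 32.7 in RBM47-OE. All RBM47-OE libraries were lower (log2 fold change -0.22, SE 0.068, edgeR adjusted p = 0.0152), and the value with the GC offset was -0.079 (adjusted p = 0.375). HNRNPUL2 had 8.16, 8.05 and 7.56 FPKM in the NC libraries and 8.02, 8.32 and 8.11 in RBM47-OE, with overlapping groups (log2 fold change -0.031, edgeR adjusted p = 0.784). HNRNPU, known also as SAF-A, had a log2 fold change of 0.032 that turned to -0.31 with the GC offset (adjusted p = 0.00126). HNRNPA1P48, which carries a pseudogene's name but is typed as protein-coding in the table, had 0.53 to 0.56 FPKM in the NC libraries and 0.50 to 0.60 in RBM47-OE (log2 fold change -0.0088).

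Close relatives often stand in for each other, and 6 pairs were read as FPKM ratios in each library, from which library-wide scaling cancels. These pairs were chosen after their values were seen, so the ratios are a description with no test. HNRNPLL to HNRNPL stood at 0.127, 0.126 and 0.130 in NC and at 0.157, 0.185 and 0.190 in RBM47-OE. The log2 ratio differed by 0.47 between groups (-2.97 ± 0.027 in NC and -2.50 ± 0.15 in RBM47-OE, SD, n = 3). HNRNPDL to HNRNPD was 0.354, 0.371 and 0.373 in NC and 0.420, 0.464 and 0.481 in RBM47-OE, a log2 difference of 0.31. HNRNPH2 to HNRNPH1 was 0.640, 0.567 and 0.580 in NC and 0.714, 0.725 and 0.799 in RBM47-OE, a log2 difference of 0.33. The log2 difference was 0.45 for SRSF1 to SRSF9 and 0.22 for HNRNPA3 to HNRNPA1. In each of these 5 pairs the lowest RBM47-OE ratio was above the highest NC ratio. TRA2B to TRA2A had overlapping groups, with a log2 difference of 0.047. Differences in exonic GC content separate some of the pairs, and with the GC offset the log2 difference was 0.060 for HNRNPLL to HNRNPL, 0.23 for SRSF1 to SRSF9 and 0.096 for HNRNPA3 to HNRNPA1. It was 0.25 for HNRNPH2 to HNRNPH1 and 0.43 for HNRNPDL to HNRNPD, the pair whose numerator is richer in GC.

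**Figure D3:**
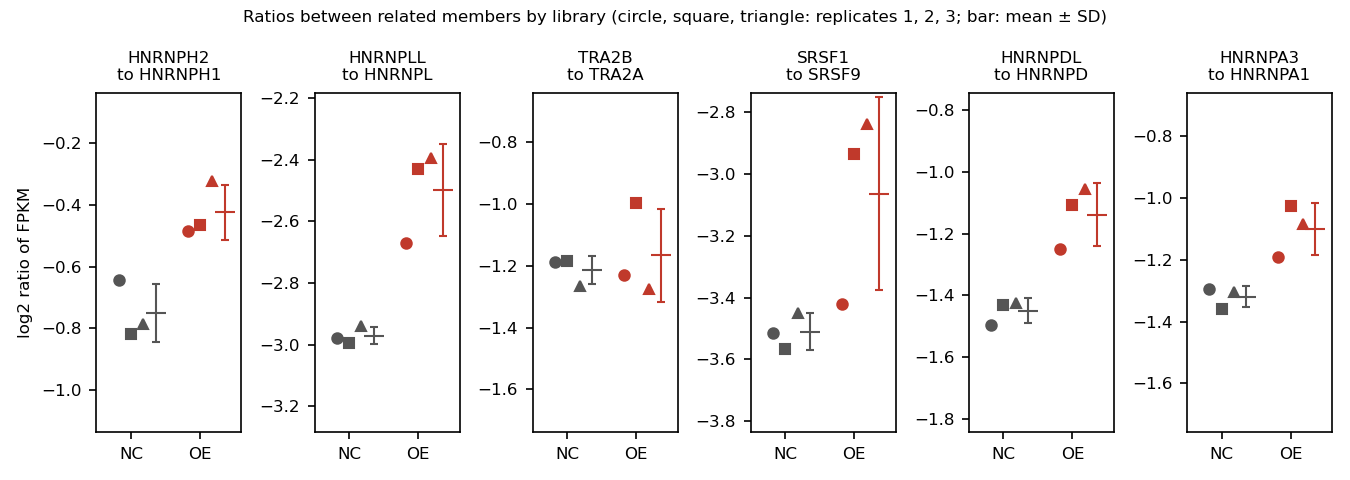
Log2 ratio of FPKM (y axis, every panel spanning the same height) between 6 pairs of related members in each NC and RBM47-OE library, with symbols for replicates 1, 2 and 3 and bars for mean ± SD (n = 3). The RBM47-OE libraries lie above NC in 5 pairs, and the groups overlap for TRA2B to TRA2A. The axes do not start at 0 because log ratios have no natural base.

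By rank, the log2 fold changes of the members followed exonic GC content about as closely as those of all genes did. Spearman's rho was -0.66 over the 42 members and -0.63 over 16229 genes, and 0.24 over the members with the GC offset. Genes share their libraries and are not independent, so no p-value was attached. For each RBM47-OE library on its own, rho over the members was -0.43, -0.62 and -0.66 in replicates 1, 2 and 3. The 5 members called higher had exonic GC contents of 37.0% to 42.4% (median 38.1%), and the 12 called lower 39.6% to 61.9% (median 53.9%). The members as a whole are poor in GC, with a median of 42.9% beside 49.0% over all genes tested.

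Within a class of GC content most members lay under the other genes of that class. Under 40% GC, 9 members had a median log2 fold change of 0.15, where the 2335 genes of the class had 0.36. Between 40% and 45%, the median was 0.014 for 16 members and 0.23 for all genes of the class. Between 45% and 50%, it was -0.14 for 5 members and 0.023 for all genes, and from 50% up -0.24 for 12 members and -0.19 for all genes. In these 4 classes 1, 1, 1 and 4 members stood above the median of their class. HNRNPH2, at 42.4% GC, was the member above it in the class from 40% to 45%. HNRNPA0 and HNRNPD fell although their exons are poor in GC, at 41.0% and 39.6%. How much of the trend with GC content arose in the cells and how much in library preparation was not tested.

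**Figure D4:**
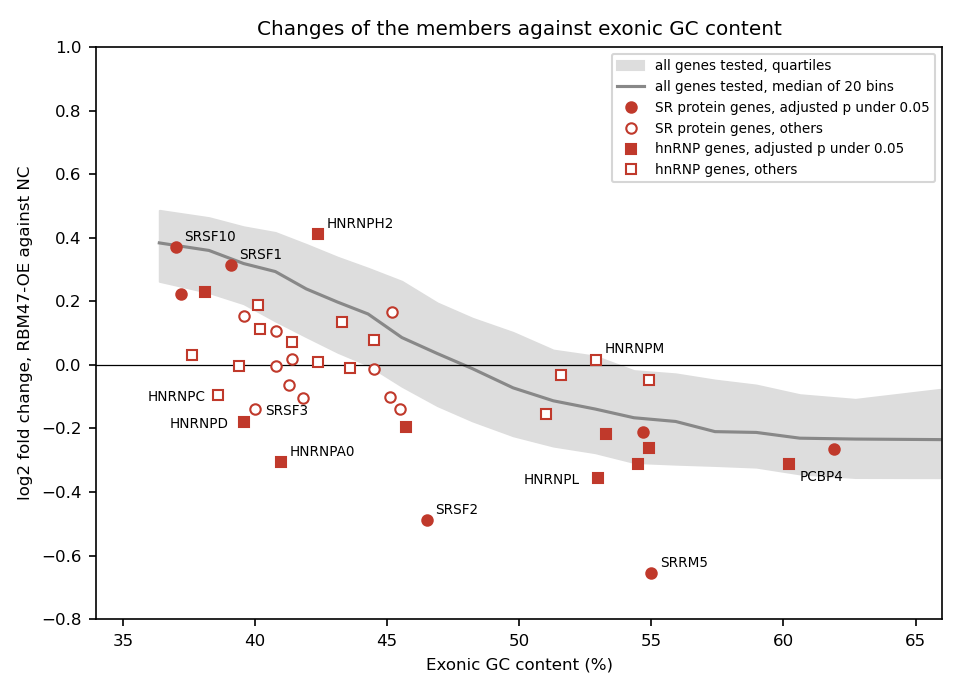
Log2 fold change in RBM47-OE against NC (y axis) plotted on exonic GC content in percent (x axis) for SR protein genes (circles) and hnRNP genes (squares), filled where the adjusted p is under 0.05, over the median (line) and quartiles (band) of all genes tested in 20 bins. Log2 fold changes fall with rising GC content among the members as among all genes (Spearman's rho -0.66 and -0.63). Most members lie under the line, with HNRNPH2 above it and SRSF2 and HNRNPA0 well below it.

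The members were among the more strongly expressed genes. On the per-length FPKM scale, 38 of 42 stood above the NC median of the 13267 protein-coding genes with the same mean of at least 10 counts. Of the members, 5 had mean levels over 100 FPKM, namely PCBP1 (176.0), HNRNPA1 (168.5), HNRNPK (153.1), HNRNPAB (148.9) and HNRNPC (140.7). PCBP1 and HNRNPA1 did not separate cleanly, with NC libraries from 170.4 to 179.0 and from 166.1 to 170.9 FPKM, and neither did HNRNPAB from HNRNPK, at 147.5 to 149.8 and 149.2 to 157.4, or from HNRNPC, at 131.0 to 148.2. Levels of 10 to 100 FPKM were found for 26 members, 1 to 10 for 8 and under 1 for SRRM5, HNRNPA1P48 and PCBP3. The summed FPKM of the 18 SR protein genes was 400.8, 399.1 and 394.1 in NC and 378.2, 391.8 and 408.8 in RBM47-OE. The groups overlapped (log2 ratio -0.019, exact two-sided permutation p = 0.7, where 3 libraries against 3 cannot go below 0.1). The 24 hnRNP genes summed to 1428.5, 1433.7 and 1410.0 in NC and 1391.5, 1396.2 and 1497.1 in RBM47-OE, which overlapped as well (log2 ratio 0.0042, exact permutation p = 1). On TMM-normalized CPM the SR protein genes summed to 2876, 2863 and 2853 in NC and to 2683, 2700 and 2846 in RBM47-OE, so that every RBM47-OE library lay below every NC library. The log2 ratio was -0.062 for these genes (exact permutation p = 0.1, the smallest possible) and -0.020 for the hnRNP genes, the latter a turn in direction against the FPKM sum (exact permutation p = 0.7).

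Shared sequence limits several members. Over 5% of the exonic bases were shared with other genes of the count table on the same strand in 8 members and on the opposite strand in 13. Genes outside that table were not checked, and whether counting used the strand is not given in the sources used here. SRSF1 shares 32.7% of its exonic bases with RP11-159D12.5, which took a mean of 4831 counts where SRSF1 took 1718. RP11-159D12.5 had a log2 fold change of 0.24 (edgeR adjusted p = 0.0295) and 0.20 with the GC offset, so the level printed for SRSF1 depends on how reads in the shared part were assigned. HNRNPUL2 shares 44.3% with HNRNPUL2-BSCL2, whose log2 fold change was -0.038. HNRNPA3 shares 53.6% on the opposite strand with NFE2L2, and SRSF9 shares 43.6% with GATC. Pseudogene rows named after members numbered 34, for 12 members, and those of any one member held at most 0.792% of the parent's counts. These overlapping genes were named after their values were seen.

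The members are annotated with many transcript forms. A transcript marked for nonsense-mediated decay is listed in GENCODE 44 for 73.8% of the members and for 47.6% of 13282 protein-coding genes tested, and a retained intron for 76.2% and 59.0%. The median number of transcripts was 14 for the members and 8 for the protein-coding genes. The count table gives 1 value a gene, so changes between productive and decay-bound forms of a member cannot be told apart from changes in its total.

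The partners of both families were read from lists. The first list held 11 tested genes, kinases that phosphorylate the arginine-serine tail and importers that carry SR proteins or hnRNPs into the nucleus. Of these, 4 rose and 0 fell, beside 19.1% and 16.9% of all genes, with a median log2 fold change of 0.079. Of the 11, 1 was higher and 0 lower with the GC offset, beside 6.0% and 8.47% of all genes, and the median was 0.018. The kinase SRPK1 rose from 10.5 to 14.3 FPKM (log2 fold change 0.37, edgeR adjusted p = 0.000961) and stayed higher with the GC offset (0.28, adjusted p = 0.00633). TNPO1, the importer of HNRNPA1, had a log2 fold change of 0.32, SRPK2 0.32 and PRPF4B 0.29, all past the test, and the GC offset ended these 3 calls, at -0.026 for TNPO1, 0.058 for SRPK2 (edgeR adjusted p = 0.609) and -0.068 for PRPF4B. Of 8 arginine methyltransferases, some of which modify the glycine-arginine regions of hnRNPs, 1 rose and 4 fell, beside 19.1% and 16.9% of all genes. With the GC offset 0 rose and 4 fell, beside 6.0% and 8.47% of all genes. The median was -0.26, and -0.21 with the GC offset. PRMT5 fell from 79.9 to 63.2 FPKM and PRMT1, the main enzyme of asymmetric methylation, from 107.9 to 86.2 FPKM (log2 fold changes -0.41 and -0.39, edgeR adjusted p = 0.000157 and 0.000332). CARM1 (-0.42) and PRMT7 (-0.47) fell too, and the GC offset left these 4 genes past the test, at -0.35 for PRMT5, -0.22 for CARM1, -0.21 for PRMT1 and -0.32 for PRMT7.

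Of 10 nonsense-mediated decay factors, 2 rose and 3 fell (median log2 fold change -0.18), beside 19.1% and 16.9% of all genes. SMG5 (-0.34) and the helicase UPF1 (-0.29) fell, and UPF2 (0.31) and the kinase SMG1 (0.22) rose, none of these 4 past the test with the GC offset, where SMG1 was at -0.019. Among 28 SR-related proteins under other symbols, 11 rose and 7 fell (median 0.21), beside the same 19.1% and 16.9%. With the GC offset 1 rose and 6 fell (median -0.040), beside 6.0% and 8.47% of all genes. U2AF2, the large subunit of the polypyrimidine tract factor, fell from 89.6 to 67.4 FPKM (log2 fold change -0.48, and -0.27 with the GC offset), and SCAF1 fell by 0.45 on the log2 scale. SREK1 (0.44) and PNISR (0.46) rose, and were at 0.072 and 0.091 with the GC offset. Of 7 hnRNPs under other symbols, 3 rose and 3 fell (median log2 fold change 0.18), beside 19.1% and 16.9% of all genes. The median was -0.046 with the GC offset, where 0 rose and 0 fell. CIRBP (-0.28) and RALY (-0.28) fell, and PTBP3 (0.31) and SYNCRIP (0.32) rose. The GC offset put these 4 genes at -0.071 for CIRBP, -0.15 for RALY, -0.032 for PTBP3 and -0.030 for SYNCRIP, none past the test (edgeR adjusted p of 0.0753 for RALY and 0.417 to 0.776 for the other three).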

How the data were processed

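Poly(A) RNA of HCT116 cells was measured in 3 NC and 3 RBM47-OE libraries, grouped by their labels. The authors trimmed reads with FASTX-Toolkit, used HISAT2 and GRCh38 for the alignment and deposited uniquely mapped reads as raw counts for 28491 genes. The FPKM values for 28244 genes were also made by the authors, divided by gene length and mapped fragments. The sample labels further name bcl2fastq, FastQC and DESeq2, and the counting tool and annotation release are not given in the sources used here.

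Counts were tested with edgeR 4.0.16 in R 4.3.3 (filterByExpr with a minimum count of 10, TMM factors, quasi-likelihood test, condition only) over 16260 genes, with Benjamini-Hochberg adjustment over all of them. Standard errors (SE) were derived from the size of each log2 fold change and its F statistic. GC content, length and overlaps came from GENCODE 44, matched for 28401 genes, and the GC offset is a loess curve (span 0.3) per library. The fit was tested on simulated counts with 200 genes changed 2-fold, and it recovered all 200. It also called 2748 unchanged genes once a trend with GC content was added, few of them with the GC offset. That trend had the same slope in every RBM47-OE library and was built on the same exonic GC contents that the offset fits. The low count with the offset was therefore fixed in advance and is no support for the offset in these data. Changes as small as those of most members were not simulated, so the recovery does not cover them. Every member is named with its log2 fold change. FPKM in all libraries is given for the members with the smallest and the largest adjusted p of each subfamily and for the largest significant changes, and of each partner list the 4 genes with the smallest adjusted p are named. Members and lists were chosen with earlier results of these data known. Alternatives were RLE factors, library totals, DESeq2 1.42.0, limma 3.58.1 on log2(FPKM + 1) and log2(FPKM + 0.1), other filters, GC and length offsets, a replicate block, a stricter threshold and leaving out each library. A gene of a partner list is not reported here. The authors' alternative splicing results were not used here.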

Additional observations from a re-analysis of the deposited data

How the results depend on the processing

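At an adjusted p under 0.05, 5 members were higher and 12 lower. With RLE factors, DESeq2 and the count filters, 5 to 7 were higher and 9 to 12 lower. The counts were 9 and 7 with library totals, 1 and 15 with the GC offset, 1 and 14 with the GC offset and the replicate block, 2 and 18 with the GC offset without RBM47-OE replicate 1, and 3 and 12 with the length offset. Limma gave 7 and 6 on both FPKM scales, and an adjusted p under 0.01 left 3 and 6. With each library left out, 2 (without RBM47-OE replicate 3) to 9 (without RBM47-OE replicate 1) were higher and 5 (without NC replicate 2) to 12 (without RBM47-OE replicate 1) lower, with 3 higher without any 1 NC library. The counts lower were 7 without NC replicate 1 or 3. Over all genes, leaving out a library gave 2090 to 3864 higher and 1675 to 3508 lower, beside 3100 and 2740 in the main fit. The GC offset with the replicate block called 1025 and 1429 of all genes, and the GC offset without RBM47-OE replicate 1 called 1111 and 1569. No counts over all genes are given for the length offset, the replicate block alone, the stricter threshold, RLE factors, DESeq2 and the count filters. At the study's thresholds 1 member, SRRM5, was called without the low-count filter, with the replicate block and without RBM47-OE replicate 2, and 1, HNRNPA0, with the GC offset without RBM47-OE replicate 1, so that leaving out a library gave 0 to 1. The replicate block gave 5 higher and 8 lower. Same-numbered libraries did not deviate together (correlations -0.060, -0.015 and -0.016), so the numbers are not taken as pairs. The median log2 fold change of the members was 0.039 with library totals, -0.16 with the GC offset (-0.1572), -0.1601 with the replicate block added and -0.1674 without RBM47-OE replicate 1. It was -0.11 with the length offset, 0.027 and 0.041 with limma on log2(FPKM + 1) and log2(FPKM + 0.1), and -0.061 to -0.019 with each library left out. Library totals moved the median of all genes to 0.062. The summed log2 ratio ranged from -0.048 to 0.008289 for the SR protein genes and from -0.031 to 0.023 for the hnRNP genes with each library left out, the latter at -0.020 on TMM-normalized CPM, and the TRA2B to TRA2A ratio from -0.038 to 0.10.

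The log2 fold changes that changed sign were as follows, and the cause was not tested. With the GC offset the values were HNRNPA1 -0.20, HNRNPA2B1 -0.096, HNRNPA3 -0.10, HNRNPDL -0.03996, HNRNPH1 -0.051, HNRNPK -0.17, HNRNPLL -0.17, HNRNPU -0.31, HNRNPUL2 0.075, PCBP3 0.10, SRSF1 -0.0009491, SRSF11 -0.13, SRSF7 -0.23, TRA2A -0.16, TRA2B -0.14, TNPO1 -0.026, PRPF4B -0.068, SMG1 -0.019, PTBP3 -0.032, SYNCRIP -0.02992 and HNRNPUL2-BSCL2 0.14. With the GC offset and the replicate block the values were HNRNPA1 -0.20, HNRNPA2B1 -0.097, HNRNPA3 -0.10, HNRNPDL -0.041, HNRNPH1 -0.051, HNRNPK -0.17, HNRNPLL -0.17, HNRNPU -0.31, HNRNPUL2 0.076, PCBP3 0.081, SRSF1 -0.002985, SRSF11 -0.13, SRSF7 -0.23, TRA2A -0.16, TRA2B -0.14, TNPO1 -0.027, PRPF4B -0.069, SMG1 -0.01996, PTBP3 -0.032, SYNCRIP -0.031 and HNRNPUL2-BSCL2 0.14. With the length offset the values were HNRNPA1 -0.051, HNRNPA1P48 0.078, HNRNPH1 -0.033, HNRNPM -0.012 and HNRNPU -0.14. With the GC offset and without RBM47-OE replicate 1, a setting added after the data were seen, the values were HNRNPA1 -0.25, HNRNPA2B1 -0.11, HNRNPA3 -0.14, HNRNPDL -0.01978, HNRNPH1 -0.025, HNRNPK -0.23, HNRNPLL -0.21, HNRNPU -0.32, HNRNPUL2 0.083, SRSF11 -0.13, SRSF7 -0.25, TRA2A -0.19, TRA2B -0.15, PRPF4B -0.067, PTBP3 -0.026, SYNCRIP -0.014 and HNRNPUL2-BSCL2 0.16. With library totals the values were HNRNPA1P48 0.053, HNRNPH3 0.059, HNRNPUL2 0.031, PCBP3 0.011, SON 0.047, SRSF6 0.05951 and HNRNPUL2-BSCL2 0.024. With limma on log2(FPKM + 1) the values were HNRNPA1P48 0.018, HNRNPH3 0.064, HNRNPUL2 0.037, SON 0.05018, SRSF4 0.002288, SRSF6 0.063 and HNRNPUL2-BSCL2 0.033. With limma on log2(FPKM + 0.1) the values were HNRNPA1P48 0.04047, HNRNPH3 0.066, HNRNPUL2 0.041, SON 0.052, SRSF4 0.002123, SRSF6 0.064 and HNRNPUL2-BSCL2 0.033. With RLE factors the values were HNRNPH3 0.002248 and SRSF6 0.001888. DESeq2 on filtered genes gave HNRNPH3 0.002184 and SRSF6 0.00189. DESeq2 on all genes gave HNRNPH3 0.002353 and SRSF6 0.002101. Without the low-count filter the values were HNRNPH3 0.003465 and SRSF6 0.003236. With each library left out the range was -0.023 to 0.045 for HNRNPA1, -0.062 to 0.067 for HNRNPA1P48, -0.058 to 0.036 for HNRNPH3, -0.064 to 0.071 for HNRNPM, -0.045 to 0.10 for HNRNPU, -0.29 to 0.087 for PCBP3, -0.10 to 0.035 for SON, -0.13 to 0.009251 for SRSF4, -0.07029 to 0.076 for SRSF6 and -0.014 to 0.061 for SRSF7.

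Depth limits SRRM5, HNRNPA1P48 and PCBP3, which have means of 60.0, 37.2 and 43.5 counts and standard errors of 0.26, 0.27 and 0.27 on the log2 scale, where the other members have 0.097 or less. Values of genes that share exons depend on a counting step that is not given in the sources used here. The GC offset removes biological as well as technical changes that run with GC content, and 1 value a gene holds no information on isoforms.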
